A study of Caenorhabditis elegans with 2 samples.

Results

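The chaperone genes described here are hsp-1, hsp-110, hsp-3, hsp-4, hsp-6 and hsp-60 of C. elegans, 6 of 19973 nuclear protein-coding genes. They were selected on their peaks in the lists analysed below, so their signals, ranks and counts are given as a description, with no test. hsp-1 and hsp-110 encode cytosolic proteins, hsp-3 and hsp-4 proteins of the endoplasmic reticulum, and hsp-6 and hsp-60 mitochondrial proteins. A peak was placed at a gene when its summit lay from 1500 bp upstream of the gene's annotated 5′ end to its 3′ end.

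Binding of SEM-2, the SoxC transcription factor of C. elegans, was profiled by chromatin immunoprecipitation with sequencing (ChIP-seq). The study has a single group, with 2 samples labelled as biological replicates 1 and 3. Each consisted of whole embryos of mixed stage, collected by egg bleaching at an age of 1 hour, with the sexes pooled. The embryos came from strain OP701, which is unc-119(tm4063) and carries the transgene wgIs701 with sem-2::TY1::EGFP::3xFLAG and unc-119(+), and chromatin was precipitated through the GFP tag. The fusion protein is made from an added transgene of 1 strain, the sequence that drives it is not given in the sources used here, and the signal of a whole embryo sums over all its cells.

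Chaperones of the Hsp70 family hold and release unfolded polypeptides in cycles of ATP hydrolysis, and Hsp110 proteins act as their nucleotide exchange factors. Hsp60 forms a closed barrel in the mitochondrial matrix, capped by Hsp10, in which imported proteins fold. Distinct stress pathways raise the expression of these genes. Heat shock factor acts on the cytosolic genes, and the unfolded protein response of the endoplasmic reticulum on hsp-4 and hsp-3. The mitochondrial counterpart of that response acts on hsp-6 and hsp-60. In this worm hsp-4 and hsp-6 are widely used as reporters of the stress of those organelles.

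Each replicate gave a list of 30000 peaks, and the authors made a combined list of 30000 from both and a thresholded list of 634. The full lists hold background regions as well as peaks, per the deposited file notes, so a low-ranking entry need not be a binding site. The thresholded peaks were the 634 with the highest signal value in the combined list, down to a signal of 153. The signal value is the authors' own for each peak, and ranks within a list run from 1 for the strongest. The median peak width was 436 bp in the combined list, 460 bp in replicate 1 and 400 bp in replicate 3, and neighbouring peaks can overlap. The lists hold no read counts, and the depth of each replicate is unknown. Of the 634 thresholded peaks, 80.6% overlapped one of the 634 strongest of replicate 1 and 67.4% one of the 634 strongest of replicate 3.

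Of the 6 genes, hsp-60 and hsp-1 had a thresholded summit in their windows, each upstream of the gene. Among all nuclear protein-coding genes, 3.21% had one by the same rule. These genes were chosen with those peaks known, so nothing is read from that contrast. hsp-1 lay just inside the threshold, at a signal of 169 and rank 500, and hsp-6 just outside, at a signal of 148 and rank 696. The hsp-6 peak was 1 of 791 at the highest −log10 q-value of the combined list, 1.92, and by that value 3 of the 6 genes, hsp-1, hsp-6 and hsp-60, were called, against 3.82% of all genes. By compartment, the strongest peaks ranked 208 and 696 for the mitochondrial genes, 500 and 2562 for the cytosolic genes, and 869 and 9875 for those of the endoplasmic reticulum. Each compartment holds 2 genes. In the combined list the cytosolic range overlapped each of the others, while both mitochondrial genes ranked above both genes of the endoplasmic reticulum. The same order held in replicate 1, but in replicate 3 hsp-6, at rank 8223, ranked below hsp-3 and hsp-4. The order also depended on the window. With 500 bp upstream, hsp-60, at rank 4521, ranked below hsp-3, at 869, and above hsp-4, at 9875. hsp-6 then had no combined summit.

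**Figure D1:**
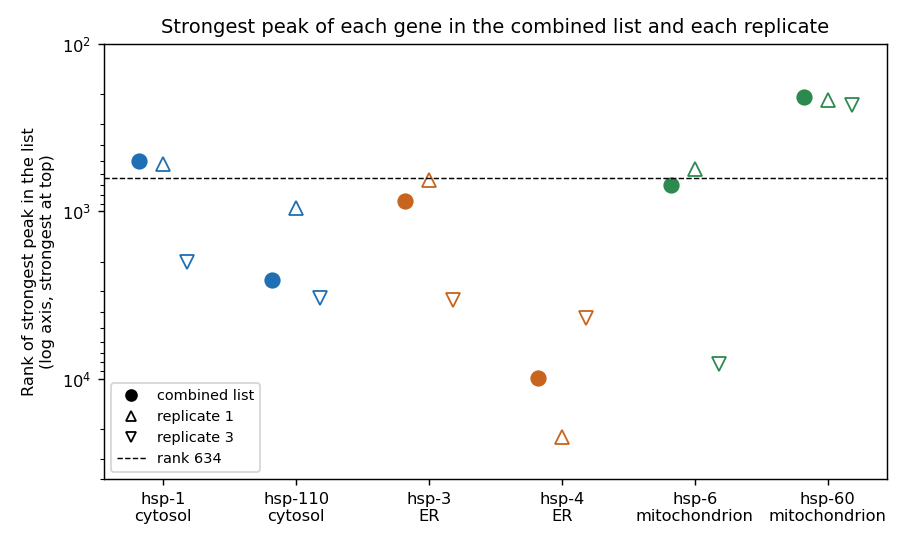
Rank of the strongest peak in the window of each gene (vertical log axis, strongest at the top) in the combined list (filled circles), replicate 1 (upward triangles) and replicate 3 (downward triangles), coloured by compartment. hsp-60 lies above rank 634, the dashed line, in all 3 lists, and hsp-3, hsp-4 and hsp-110 lie below it in all 3.

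hsp-60 (WBGene00002025, chrIII:1619742-1625803, plus strand), the mitochondrial chaperonin gene, had the strongest peak of the 6 and the one ranked most alike in the replicates. Its signal was 296 in the combined list (rank 208; chrIII:1618893-1619328 on ce11, which is the WBcel235 sequence), 194 in replicate 1 (rank 216) and 101 in replicate 3 (rank 233). The rank was therefore nearly the same in both embryo samples. Of all nuclear protein-coding genes, 1.00% had a strongest combined peak of at least this signal. The summit lay 631 bp upstream of hsp-60, and the strongest summits of the replicates were 63 bp apart. Replicate 1 had a second peak between the genes, 477 bp upstream of hsp-60, at rank 831.

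The same peak lay in the window of Y22D7AL.10, which RefSeq annotates as the mitochondrial 10 kDa heat shock protein, the Hsp10 cap of the chaperonin. The genes run in opposite directions with 813 bp between their 5′ ends, and the summit was nearer to Y22D7AL.10, 182 bp upstream of it. With each summit given only to the nearest 5′ end, this peak passed from hsp-60 to Y22D7AL.10. The peak is thus shared by the genes of the barrel and the cap, and the lists do not show which of them it belongs to. The 300 bases around the summit, all intergenic, are shown because they hold the strongest summit of the 6 genes. Capitals mark matches to the core of the heat shock element, TTCNNGAA or GAANNTTC, which 32.5% of all genes hold in the 300 bases around their 5′ ends.

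hsp-60 and Y22D7AL.10 (chrIII:1618961-1619260, plus strand): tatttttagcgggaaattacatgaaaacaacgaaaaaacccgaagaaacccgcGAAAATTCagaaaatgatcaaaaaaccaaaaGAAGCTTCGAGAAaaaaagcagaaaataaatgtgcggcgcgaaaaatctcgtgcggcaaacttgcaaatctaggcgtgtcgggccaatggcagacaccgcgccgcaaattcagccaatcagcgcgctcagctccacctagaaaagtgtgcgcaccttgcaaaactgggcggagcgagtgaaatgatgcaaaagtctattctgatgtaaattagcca

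The matches, GAAAATTC and a run that joins GAAGCTTC and TTCGAGAA, lay more than 50 bp from the summit. Within 50 bp of it there was no match to any motif searched. G and C made up 52.5% of those 101 bases, where the median over the 617 nuclear thresholded summits was 51.5%.

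The other combined peaks of hsp-60 lay inside the gene, which is the longest of the 6. There were 5, with signals from 48.3 to 85.5. The strongest of them, in a coding exon 1974 bp from the 5′ end, ranked 4521, and its replicate counterparts ranked 10140 and 2340. The remaining ones lay in introns, a coding exon and the 3′ UTR at ranks of 15481 and beyond.

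hsp-6 (WBGene00002010, chrV:4824124-4826760, minus strand), the mitochondrial Hsp70 gene, had its peak upstream too, but its replicates differed. The signal was 148 in the combined list (rank 696; chrV:4827078-4827513), 105 in replicate 1 (rank 555) and 39.7 in replicate 3 (rank 8223). The peak stood among the 634 strongest of replicate 1 and far below them in replicate 3. A strongest combined peak of at least this signal was found at 3.46% of all genes. The summits of the replicates lay 504 and 636 bp upstream.

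This peak also lay between divergent genes. C37H5.5, which RefSeq annotates as a homologue of nucleolar complex protein 3, starts 600 bp from hsp-6 on the other strand, and the summit was 64 bp upstream of C37H5.5 and 536 bp upstream of hsp-6. A window of 500 bp upstream leaves hsp-6 without any combined summit. The peak overlapped the unclassified non-coding RNA genes C37H5.15 and C37H5.16, whose ends lay 20 and 32 bp from the summit. A second combined peak, 757 bp upstream of hsp-6 and inside C37H5.5, had a signal of 41.7 and rank 28310. In replicate 1 the strongest summit lay within both RNA genes, and in replicate 3 it lay inside C37H5.5, 36 bp from its 5′ end.

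hsp-1 (WBGene00002005, chrIV:17278959-17281330, plus strand), the constitutive cytosolic Hsp70 gene, had the single thresholded peak whose nearest 5′ end was that of the member itself. Its signal was 169 in the combined list (rank 500; chrIV:17278422-17278857), 108 in replicate 1 (rank 521) and 56.4 in replicate 3 (rank 1995). The summit lay 319 bp upstream of hsp-1 in all 3 lists, at the same base. At least this signal was reached in the combined list at 2.53% of all genes and, for the replicate 3 value, in that list at 8.80%. The next protein-coding gene upstream, clec-196, runs in the same direction and ends 1211 bp away. The unclassified non-coding RNA gene F26D10.23 overlapped the peak, 138 bp from the summit.

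Around this peak the combined list held 2 weaker upstream summits at hsp-1, 1179 bp (signal 112, rank 1706) and 120 bp (signal 82.3, rank 5205) from the 5′ end. The former ranked 2396 in replicate 1 and 5185 in replicate 3, with summits within 23 bp of the combined one. It lay nearer to the 5′ end of clec-196, at 824 bp. A further 2 summits lay in the gene, with signals of 62.1 in an intron and 56.5 in a coding exon. hsp-1 also carries a snoRNA gene, F26D10.24, in an intron (chrIV:17280046-17280169). No summit of any list lay within 100 bp of that snoRNA gene, the nearest being 195 bp away in replicate 3 and 542 bp away in the combined list.

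The bases within 50 bp of the strongest summit are shown for hsp-6 and hsp-1, on the strand of each gene, because these summits lay on either side of the threshold. Capitals mark the core of the heat shock element.

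hsp-6 (chrV:4827246-4827346, minus strand): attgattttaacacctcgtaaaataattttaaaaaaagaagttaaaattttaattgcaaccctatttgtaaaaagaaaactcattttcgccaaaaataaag
hsp-1 (chrIV:17278590-17278690, plus strand): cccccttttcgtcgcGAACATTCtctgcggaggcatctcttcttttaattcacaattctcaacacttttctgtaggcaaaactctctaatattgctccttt

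The hsp-6 window was poor in G and C, at 21.8%, and the hsp-1 window had 41.6%. In the thresholded summit windows the share ranged from 15.8% to 72.3%. The hsp-1 window held 1 heat shock core, GAACATTC, which 5.51% of the thresholded summit windows hold in either of its forms. The weaker hsp-1 summit at 120 bp stood beside the overlapping matches GAATTTTC and TTCTAGAA.

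**Figure D2:**
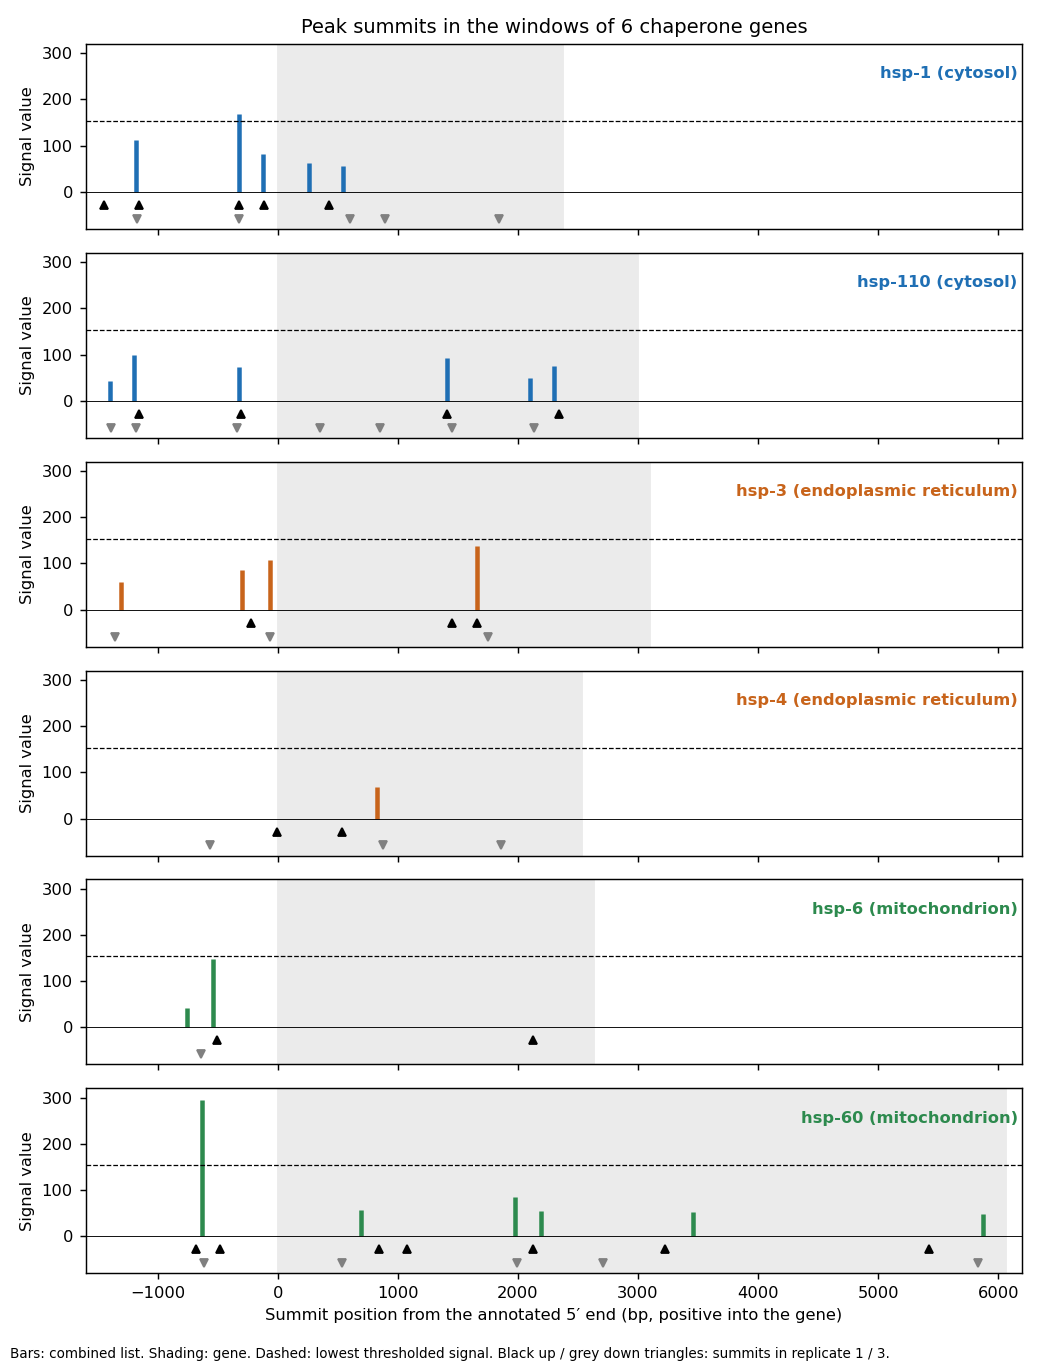
Summits in the window of each gene by their distance from the annotated 5′ end (horizontal axis, bp), with the combined-list signal as bars (vertical axis), the gene shaded and the lowest thresholded signal dashed; triangles below mark summits in replicate 1 (black, upward) and replicate 3 (grey, downward). The bars of hsp-60 and hsp-1 cross the dashed line upstream of the gene, while the tallest bar of hsp-3 stands inside it at 137 and hsp-4 has a single bar.

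hsp-110 (WBGene00016250, chrIII:8443910-8446909, minus strand), which encodes the cytosolic Hsp110 exchange factor, had several weak summits in place of a strong one. The strongest combined peak had a signal of 99.5 (rank 2562; chrIII:8447886-8448321), 1195 bp upstream of hsp-110, but it lay inside rpn-3, a gene of the proteasome lid that starts 444 bp from hsp-110 on the opposite strand. In replicate 1 the strongest summit was instead in a coding exon of hsp-110, 1412 bp from the 5′ end (signal 84.1, rank 958). In replicate 3 it was the one in rpn-3, 1182 bp upstream (signal 50.4, rank 3295). The replicates thus led at places 2594 bp apart. In the combined list the coding exon peak had a signal of 91.6 (rank 3494), and its counterpart in replicate 3 ranked 29232.

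Between the divergent hsp-110 and rpn-3 genes the combined list held 1 summit, 318 bp upstream of hsp-110 and 126 bp upstream of rpn-3. Its signal was 72.9 (rank 7782), and its counterparts ranked 5782 and 16951. The non-coding RNA gene C30C11.14 overlapped the peak, 132 bp from the summit. The 300 bases around the 5′ end of hsp-110 held 4 matches to the heat shock core, in 2 overlapping pairs. Those of hsp-1 held 2 overlapping matches and those of hsp-4 2 separate ones, with none at hsp-3, hsp-6 and hsp-60. A strongest combined peak of at least the hsp-110 signal was found at 10.7% of all genes.

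hsp-3 (WBGene00002007, chrX:6089028-6092124) and hsp-4 (WBGene00002008, chrII:7350112-7352645), both on the minus strand, encode BiP, the Hsp70 of the endoplasmic reticulum. They stood far apart in these lists. The strongest combined peak of hsp-3 had a signal of 137 (rank 869; chrX:6090247-6090682), and that of hsp-4 a signal of 67.3 (rank 9875; chrII:7351602-7352037). At least these signals were found at 4.18% and 29.9% of all genes. In replicate 1 the strongest hsp-3 peak had a signal of 96.2 (rank 649) and that of hsp-4 a signal of 29.1 (rank 22180). In replicate 3 they had signals of 50.04 (rank 3405) and 47.3 (rank 4332). The distance between the genes was therefore large in replicate 1 and small in replicate 3.

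The strongest hsp-3 summit of the combined list lay in a coding exon, 1659 bp from the 5′ end and 6 bp from the annotated start of a short hsp-3 transcript. Its counterparts ranked 662 in replicate 1, with a summit 1 bp away, and 5461 in replicate 3, 90 bp away. The next summit lay 66 bp upstream of hsp-3, with a signal of 108 (rank 1901). Its counterparts ranked 649 in replicate 1, with a summit 153 bp away, and 3405 in replicate 3, 4 bp away. In each replicate alone, a summit upstream of hsp-3 was the strongest, 219 bp from the 5′ end in replicate 1 and 62 bp in replicate 3. In replicate 1 the margin was small, with signals of 96.2 upstream and 95.5 in the coding exon. A weaker combined peak had its summit 294 bp upstream (rank 4349). It overlapped the same upstream replicate peaks, whose summits were 75 bp away in replicate 1 and 232 bp away in replicate 3. The weakest combined summit lay 1304 bp upstream (rank 13048), inside C15H9.5, which starts 1176 bp away on the opposite strand.

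hsp-4 had 1 combined summit, in a coding exon 825 bp from its 5′ end. The overlapping peaks ranked 28022 in replicate 1, with a summit 288 bp away, and 4332 in replicate 3, with a summit 53 bp away. Replicate 1 also had a summit 7 bp upstream of hsp-4, its strongest there. Replicate 3 had 1 at 567 bp upstream, at rank 18482, and the combined and thresholded lists had none upstream.

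The coding sequences of hsp-3 and hsp-4 were identical at 77.6% of 1971 aligned bases and shared no word of 32 bases. Every word of 32 bases in the strongest combined peak of each of the 6 genes occurred once in the genome. The summit windows of hsp-3 are shown, on its strand, because the coding summit and the upstream summit changed places between the lists. Capitals mark the core of the heat shock element.

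hsp-3 coding exon (chrX:6090415-6090515, minus strand): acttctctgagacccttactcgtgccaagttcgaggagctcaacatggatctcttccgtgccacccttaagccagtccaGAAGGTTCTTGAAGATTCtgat
hsp-3 upstream (chrX:6092140-6092240, minus strand): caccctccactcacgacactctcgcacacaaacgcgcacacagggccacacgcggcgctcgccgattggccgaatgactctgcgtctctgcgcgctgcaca

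The coding window of hsp-3 held 3 overlapping heat shock cores in coding sequence, GAAGGTTC, TTCTTGAA and GAAGATTC. The upstream window held none and was rich in G and C, at 65.3%. In the 300 bases around their 5′ ends, hsp-3 and hsp-4 were the 2 of the 6 genes with the XBP1 site TGACGTG, on either strand, which 2.93% of all genes hold there. XBP1 is the factor that the IRE-1 branch of the unfolded protein response activates. The element made of CCAAT and CCACG with 9 bases between them, known from mammalian BiP promoters, was found at 0.0300% of all genes and at none of the 6.

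The Sox site, here CAAAG or CAATG preceded by AA, AT, TA or TT on either strand, was absent within 50 bp of the strongest combined summit of 5 of the 6 genes. The exception was hsp-4, with TTCAATG. Among thresholded summit windows 6.32% held such a site. In the 300 bases around the 5′ ends it was present at hsp-1, hsp-4 and hsp-110, and at 42.8% of all genes. The repeat GAGAGAG and the box TATAAA, on either strand, were not found within 50 bp of the strongest summits, where 5.35% and 3.57% of thresholded windows held them.

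Across the 6 genes the combined list held 24 summits, of which 12 lay upstream, 8 in coding exons, 3 in introns and 1 in a 3′ UTR. A summit of any strength is common, at 57.7% of all genes. Of the 24 peaks, 21 overlapped a peak of both full replicate lists, 1 a peak of replicate 1 alone and 2 a peak of replicate 3 alone; over the whole combined list 49.9% did so for both. Neighbouring peaks overlap, so 1 replicate peak can be the counterpart of several of the 24. The genes were selected on their peaks, and the 24 were not matched for rank with the whole list. Nothing is therefore read from that contrast.

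The strongest summits of the replicates lay 0 bp apart at hsp-1, 63 bp at hsp-60, 132 bp at hsp-6, 157 bp at hsp-3, 885 bp at hsp-4 and 2594 bp at hsp-110. They were within 100 bp at 2 of the 6 genes, at 78.6% of the 637 genes with a thresholded summit and a peak in both replicates, and at 24.0% of the 9116 genes with a peak in both. The strongest peak ranked higher in replicate 1 than in replicate 3 at 5 of the 6 genes, hsp-4 being the exception. The same held for 53.7% of the 637 genes and for 49.05% of the 9116. Among the 634 strongest peaks of replicate 1 were those of hsp-60, hsp-1 and hsp-6 (3.16% of all genes), and among those of replicate 3 that of hsp-60 (2.93% of all genes).

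**Figure D3:**
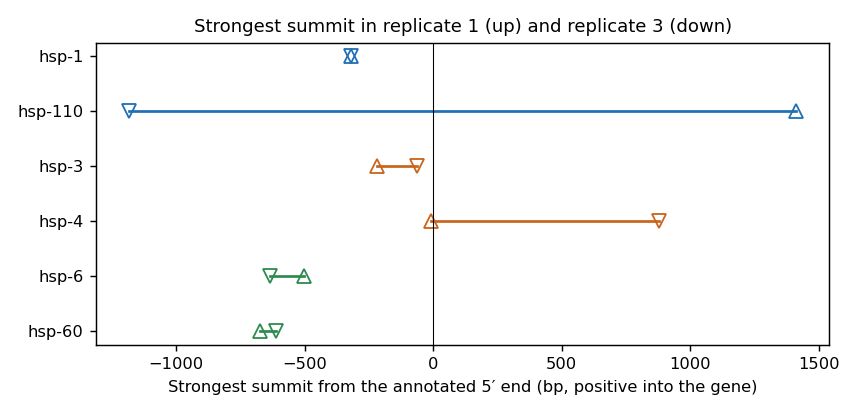
Position of the strongest summit in the window of each gene in replicate 1 (upward triangles) and replicate 3 (downward triangles), in bp from the annotated 5′ end, joined by a line and coloured by compartment as in the plot of ranks. The triangles coincide at hsp-1 and lie 2594 bp apart at hsp-110.

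By the ranks of their strongest peaks in replicates 1 and 3, the genes most like hsp-60 among 637 were Y22D7AL.10, with the same peak, cox-6A (ranks 208 and 230) and F14B4.1 (212 and 242). cox-6A encodes a subunit of cytochrome c oxidase. Those most like hsp-1 were lipl-4, a lysosomal lipase gene (541 and 1996), and W02D3.13 and W02D3.4, which share a peak (508 and 2089). The measure was the summed difference in log2 rank over 2 replicates, so it rests on 2 values for each gene.

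Other chaperone genes were taken from 7 lists by function, 100 genes in all, of which 6 (6%) had a thresholded summit in their windows against 3.21% of all genes. The 6 genes held 5 peaks, and that of Y22D7AL.10 is the hsp-60 peak, on which the members were selected. The lists were also chosen with earlier results known, so nothing is read from 6% against 3.21%. The strongest combined peaks of the 100 genes, where present, had a median signal of 78.2, against 68.7 over all genes with a peak. For the members described above it was 143, but they were selected on their peaks, so nothing is read from that contrast. The windows of the 100 genes were of similar length to those of all genes, with medians of 3677 and 3527 bp. The members had a median of 4318.5 bp.

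In the cytosol, the divergent and identical Hsp70 copies F44E5.4 and F44E5.5, which are induced by heat, shared a thresholded peak (signal 259, rank 243; chrII:11759357-11759578). It ranked 431 in replicate 1 and 132 in replicate 3, and the summit lay 163 and 188 bp upstream of the genes. Of its words of 32 bases, 94.2% occurred once in the genome. Its summit window is shown on the strand of F44E5.4, with 4 overlapping matches to the heat shock core in capitals.

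F44E5.4 and F44E5.5 (chrII:11759424-11759524, minus strand): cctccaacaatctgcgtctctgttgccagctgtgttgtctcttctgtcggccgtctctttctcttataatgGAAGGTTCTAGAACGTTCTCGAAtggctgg

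Beside that pair, hsp-12.3 was the third of the 17 inducible and small heat shock genes with a thresholded summit. Its peak was a separate one (signal 155, rank 627, replicate 3 rank 4404). Its summit lay in the 3′ UTR within 100 bp of the snoRNA gene F38E11.11. Of these 17 genes, 11 had any combined summit. hsp-16.1 and hsp-16.48 are each annotated as 2 gene copies, and whether reads could be told apart between copies was not tested.

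No other cytosolic list had a thresholded summit. Among the 15 genes of the Hsp70, Hsp90 and Hsp110 machinery, hsp-90 had the strongest peak (signal 129, rank 1040), followed by bag-1 (signal 125, rank 1136), which encodes a cofactor of Hsp70. Among the 14 genes of the cytosolic chaperonin CCT and of prefoldin, cct-5 had a signal of 136 (rank 910; replicate ranks 1147 and 808) and cct-8 of 116 (rank 1511). All 14 had a combined summit.

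In the endoplasmic reticulum list of 12 chaperones and folding enzymes there was no thresholded summit either. DnaJ genes outside that list are grouped by name below. enpl-1, the Hsp90 of the endoplasmic reticulum, had a signal of 139 (rank 840), close to that of hsp-3. The disulphide isomerase gene pdi-6 had a signal of 120 (rank 1313). Of the 7 stress regulators of this organelle, xbp-1 had a signal of 144 (rank 755), with ranks of 487 in replicate 1 and 8412 in replicate 3, and atf-6 a signal of 104 (rank 2198).

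Of the 10 mitochondrial chaperones and stress regulators, Y22D7AL.10 was the single gene with a thresholded summit, the one shared with hsp-60. Among the 25 remaining DnaJ genes, which encode partners of Hsp70, dnj-29 (signal 345, rank 162) and dnj-19 (signal 178, rank 449) had thresholded peaks. Their summits lay 160 and 365 bp upstream, and that of dnj-19 was nearer to nhr-47, at 31 bp. dnj-29 ranked 146 and 236 in the replicates. These 25 genes, dnj-29 and dnj-19 included, were grouped by name, with no compartment assigned. Some may encode proteins of the endoplasmic reticulum, so the lack of a thresholded summit in the list of that organelle does not cover them.

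**Figure D4:**
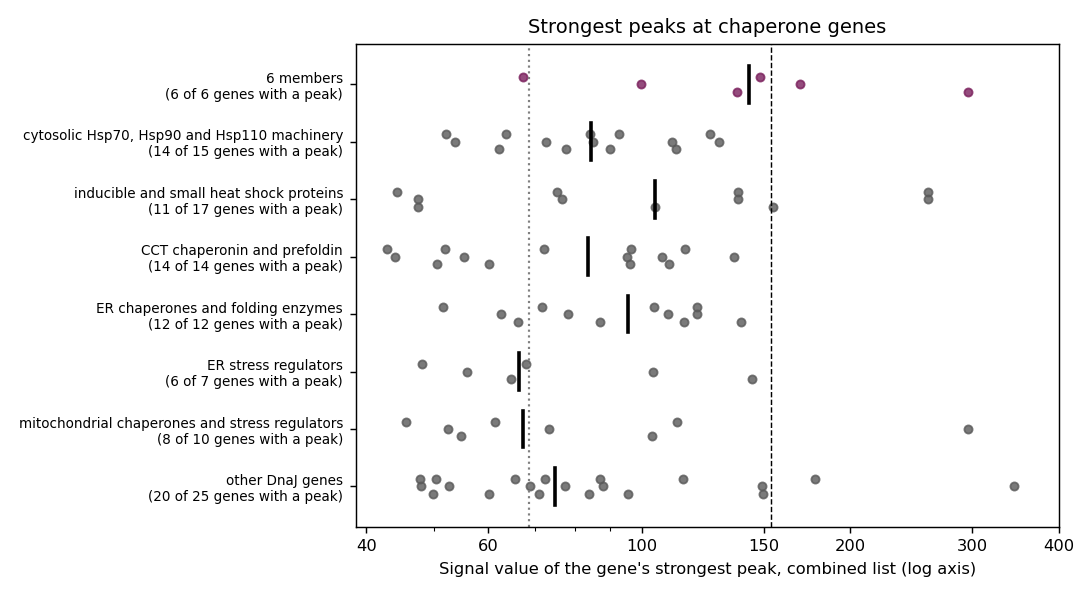
Signal value of the strongest combined-list peak (horizontal log axis) for each of the 6 genes and for the genes of 7 chaperone lists that had a peak; each point is a gene, the black bar is the median of the group, the dashed line the lowest thresholded signal and the dotted line the median of all genes with a peak. The points farthest right are dnj-29 at 345, the peak that hsp-60 and Y22D7AL.10 share at 296 and the peak of F44E5.4 and F44E5.5 at 259.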

How the data were processed

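SEM-2 binding was read from 4 peak lists in narrowPeak format on ce11, per the labels and file headers. Per the file notes deposited with them, each replicate list was derived from that replicate's alignment and a control file that both replicates share, and the thresholded list holds the peaks kept by an irreproducible discovery rate (IDR) analysis. Control reads were not analysed here. No source used here names the aligner, the peak caller or the IDR threshold. Column 7 was deposited as a signal value of unstated scaling, the summit offset as column 10, and the −log10 q-value as column 9.

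Summits were set against Ensembl release 115 (WBcel235) with Python 3.11.15 and pandas 2.3.3, and sequences were read from the RefSeq WBcel235 genome. Coordinates are 1-based. Peaks overlapped when they shared 1 bp or more. Coding sequences were aligned with Biopython 1.88. Window assignment was tested on simulated data. No significance test was run. The 6 genes, the lists and the alternatives were chosen with earlier results of these data known. Beside the 6, the genes named were those sharing a thresholded peak with them, list genes with a thresholded summit or otherwise the 2 strongest of a list, and the 3 most alike in rank. In the lists, 3 names (hsp-16.11, hsp-16.49 and daf-21, an older name of hsp-90) matched no annotated gene.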

Additional observations from a re-analysis of the deposited data

How the results depend on the processing

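The 2 genes with a thresholded summit became 1 (hsp-60) in the stronger part of the thresholded list, above its median signal, 1 (hsp-1) with a window of 500 bp upstream, and 1 (hsp-1) when each summit went to the nearest 5′ end. With either replicate alone the count ranged from 1 (hsp-60, without replicate 1) to 3 (hsp-60, hsp-1 and hsp-6, without replicate 3). Other windows, the highest q-value and leaving out peaks at tRNA, snoRNA and snRNA genes gave 2 or 3. Of the 2 thresholded peaks, 1 had a counterpart among the 634 strongest of each replicate, and 2 did so with the 5000 strongest or all peaks of each. The count of other chaperone genes was 6, from 4 to 9 over all alternatives and from 4 to 8 with either replicate alone. With either replicate alone the rank of the strongest peak ranged from 216 to 233 for hsp-60, 521 to 1995 for hsp-1, 555 to 8223 for hsp-6, 649 to 3405 for hsp-3, 958 to 3295 for hsp-110 and 4332 to 22180 for hsp-4. With 500 bp upstream the rank of hsp-60 was 4521, since its peak lies 631 bp away, and hsp-6 had no combined summit; with 500 bp downstream as the limit hsp-4 had none. The lists give no depth, so no counting error can be set on a signal value.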

Other observations

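The small heat shock genes hsp-16.2 and hsp-16.41 shared a combined peak below the threshold, with a signal of 138 (rank 863) and ranks of 1021 in replicate 1 and 3122 in replicate 3. The heat-inducible hsp-70 had its strongest combined peak at rank 2163, with ranks of 1849 in replicate 1 and 10035 in replicate 3. The DnaJ genes dnj-5 (signal 149.6, rank 671) and dnj-9 (signal 149.02, rank 682) had peaks just below the threshold. Like hsp-6 and xbp-1, they stood among the 634 strongest of replicate 1, at ranks 519 and 563, and lower in replicate 3, at ranks 3978 and 5330. These genes were picked with their values in view, and what sets the difference between the replicates was not tested.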
